A study of Homo sapiens with 14 samples.

Results

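The 6 genes described here encode enzymes of the pentose phosphate pathway: PGLS and PGD of its oxidative branch, RPIA and RPE, which interconvert its pentose phosphates, and TKT and TALDO1 of its non-oxidative branch. They were taken as every probe set whose only gene symbol in the platform annotation was one of these names, which gave 6 of the 11963 genes and 8 of the 22283 probe sets of the array (1 each for PGD, RPIA, RPE and TALDO1, 2 each for PGLS and TKT). All 8 passed the filter on low values. Their levels were followed in Kasumi-1, a cell line grown from a human acute myeloid leukaemia that makes the AML1-ETO fusion protein, on 14 oligonucleotide arrays. A further probe set annotated to RPE together with RPEL1 was left out, since its signal cannot be assigned to either.

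Every array came from the same line at 96 h, so all groups carried the fusion gene, and the groups differed in what was delivered and how. An siRNA against AML1-ETO was given by nucleofection, an electrical delivery of RNA into the cells, on 3 arrays and by a lipid reagent on 3 arrays. An siRNA against luciferase, a firefly enzyme used as a control target, was given by nucleofection on 2 arrays and by lipid on 3. Another array held cells nucleofected without siRNA, and 2 held untransfected cells. The siRNA was at 1.5 µM in nucleofection and at 240 nM with lipid, so the delivery method and the dose cannot be told apart. The labels did not say whether replicates were separate cultures, so the p-values rest on the spread among arrays of a group, and that spread may be technical.

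The pentose phosphate pathway splits off from glycolysis at glucose 6-phosphate. Its oxidative branch yields NADPH, the reductant of fatty acid synthesis, of the glutathione and thioredoxin systems and of the phagocyte oxidase of myeloid cells, and ends in ribulose 5-phosphate. The other enzymes turn that sugar into ribose 5-phosphate, the sugar of nucleotides, or carry carbon back to fructose 6-phosphate and glyceraldehyde 3-phosphate, intermediates of glycolysis.

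The stretch of 250 bases before the annotated start was found for all 6 genes in RefSeq's promoter table (GRCh38.p14). It is shown for TKT, the gene that differed most between the siRNAs, for PGD, the member with the largest difference between the delivery methods as the mean of both siRNAs, and for TALDO1, which acts beside TKT and did not pass either test. The TKT stretch is chr3:53256023-53256272 on the minus strand, the PGD stretch chr1:10398814-10399063 on the plus strand and the TALDO1 stretch chr11:747214-747463 on the plus strand. Capitals mark TGTGGT, a form of the core bound by the Runt domain that AML1-ETO keeps from AML1, and CCAAT or its complement ATTGG, the CCAAT box.
TKT: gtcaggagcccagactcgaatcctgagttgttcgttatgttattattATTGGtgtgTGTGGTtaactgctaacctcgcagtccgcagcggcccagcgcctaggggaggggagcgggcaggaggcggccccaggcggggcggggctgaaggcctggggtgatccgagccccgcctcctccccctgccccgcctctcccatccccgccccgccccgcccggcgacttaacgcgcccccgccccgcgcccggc
PGD: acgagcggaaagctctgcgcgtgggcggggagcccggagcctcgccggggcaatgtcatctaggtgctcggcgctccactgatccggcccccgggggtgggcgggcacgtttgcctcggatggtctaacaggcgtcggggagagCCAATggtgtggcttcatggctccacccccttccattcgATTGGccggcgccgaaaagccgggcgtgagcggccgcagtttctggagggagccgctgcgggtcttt
TALDO1: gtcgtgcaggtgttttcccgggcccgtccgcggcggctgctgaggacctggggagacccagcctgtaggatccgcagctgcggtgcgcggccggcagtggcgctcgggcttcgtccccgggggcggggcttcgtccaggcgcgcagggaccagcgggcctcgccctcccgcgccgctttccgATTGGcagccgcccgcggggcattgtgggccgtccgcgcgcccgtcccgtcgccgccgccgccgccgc
Both strands were searched in each stretch. TGTGGT was found in 1 of the 6 genes, TKT, with its first base 194 bases before the start, and in 11.0% of 35114 promoter stretches of the same length. TGCGGT, another form of that core, was not part of the search, and its share of all stretches was not counted. It stands unmarked in the TALDO1 stretch and, as its complement ACCGCA, in that of RPE. The CCAAT box was found in 5 of the 6, all but PGLS, against 32.0% of all stretches, and PGD held 2. In TKT it lay 203 bases before the start and did not overlap TGTGGT. A GC box, GGGCGG, was found in the same 5 genes and in 42.6% of all stretches. TKT held 5 matches, of which those starting 49, 44 and 39 bases before the start overlap each other by 1 base. TGACNNNGC, a core of the antioxidant response element, was found in PGD and RPE and in 10.9% of all stretches. Neither CACGTG, the E-box, nor TATAAA was found in any of the 6, against 6.35% and 10.7% of all stretches. These matches describe the sequence, and binding was not measured here.

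The deposited value of a probe set is its MAS5 signal, a linear intensity that the authors scaled to the same mean on every array. A change of all transcripts by the same factor would thus leave no trace. In a bulk sample fewer cells of a type and less RNA per cell cannot be told apart. Differences below are on the log2 scale after raising signals under 20 to 20, were fitted with limma to 11439 probe sets at once, and count as called where the p adjusted by the method of Benjamini and Hochberg was under 0.05. The mean signal of TKT probe set 208699_x_at was higher than that of 99% of all probe sets with 1 symbol, and those of PGD, TALDO1 and the other TKT probe set were above at least 97.7% of them. The PGLS and RPIA probe sets lay above at least 88.9%. RPE, at the 47.7th percentile, was under the floor on 3 of the 14 arrays. These percentiles only place the members on the array, since probes differ in brightness, and no member's level is set against another's.

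The line and the knockdown were checked on the same arrays. MPO, the peroxidase of myeloid granules, and KIT, a stem cell factor receptor, had signals of at least 4465 and 1617 on all 14 arrays. Other markers of the line were dimmer, CD34 at 29.1 to 79.5 and the 3 probe sets of PTPRC, the leukocyte antigen CD45, between 8.08 and 385. Summed levels of the B cell and erythroid marker lists stayed at or below 109 and 129 on every array. The T cell list (3 probe sets, of which CD3D was under the floor on 11 of the 14 arrays) summed to 77.7 to 107 with AML1-ETO siRNA by nucleofection, against 122 to 146 with luciferase siRNA by nucleofection, and to at most 108 in the other groups. The luciferase nucleofection arrays thus stood apart on this list, and its part in the results below was not tested. Of the 4 probe sets of RUNX1T1, the ETO side of the fusion, 3 were lower by nucleofection in limma, 1 of these being under the floor on all 3 AML1-ETO arrays, and 0 were called with lipid. The brightest, 205529_s_at, had signals of 318, 328 and 251 with AML1-ETO siRNA by nucleofection, against 645 and 763 with luciferase siRNA (limma, log2 difference −1.24, adjusted p = 0.00279). With lipid it had 399.7, 426 and 502 with AML1-ETO siRNA, against 539.7, 560.3 and 567 with luciferase siRNA (log2 difference −0.34, adjusted p = 1). The probe set that was not called by nucleofection, 216832_at, had 92.1, 95.8 and 72.4 with AML1-ETO siRNA, against 88.5 and 135 with luciferase siRNA (log2 difference −0.35, adjusted p = 0.409).

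PGLS, the lactonase that hydrolyses 6-phosphogluconolactone, and PGD, which decarboxylates 6-phosphogluconate and forms NADPH, are the oxidative enzymes. PGD (201118_at) had signals of 585, 682 and 571 with AML1-ETO siRNA by nucleofection, against 471 and 476 with luciferase siRNA by nucleofection. The array nucleofected without siRNA had 565. Lipid delivery gave 860.4, 808 and 1150.2 with AML1-ETO siRNA, against 889, 865 and 894 with luciferase siRNA, while untransfected cells had 834 and 812. Every nucleofected array was thus below every lipid and untransfected array, and within nucleofection the AML1-ETO arrays were above the luciferase arrays. Of the 5 groups with replicates, the lowest mean was that of luciferase nucleofection, 474 ± 3.36 (SD, n = 2), followed by AML1-ETO nucleofection with 612 ± 60.5 (SD, n = 3). The means of untransfected cells (823 ± 15.0, SD, n = 2), luciferase lipid (883 ± 15.6, SD, n = 3) and AML1-ETO lipid (939 ± 184, SD, n = 3) followed, and no difference among these 3 groups was called.

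PGLS was read by 2 probe sets. The first, 218387_s_at, had signals of 189, 228 and 167 with AML1-ETO siRNA by nucleofection, against 198 and 172 with luciferase siRNA, and 186 without siRNA. Under lipid its signals were 278, 239 and 281 with AML1-ETO siRNA, against 226, 235 and 231 with luciferase siRNA, and untransfected cells had 244 and 231. Within each siRNA the nucleofected arrays lay below the lipid arrays, and within nucleofection the siRNAs overlapped. The second, 218388_at, had 204, 198 and 148 with AML1-ETO siRNA by nucleofection, against 143 and 138 with luciferase siRNA, and 126 without siRNA. The lipid arrays read 207, 192 and 215 with AML1-ETO siRNA, against 216, 208 and 214 with luciferase siRNA, and untransfected cells had 209.5 and 239. Here the luciferase nucleofection and no-siRNA arrays were the lowest, and the AML1-ETO nucleofection arrays overlapped the AML1-ETO lipid arrays.

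RPIA, the isomerase that makes ribose 5-phosphate, and RPE, the epimerase that makes xylulose 5-phosphate, both act on ribulose 5-phosphate. RPIA (212973_at) had signals of 187, 194 and 212 with AML1-ETO siRNA by nucleofection, against 183 and 247 with luciferase siRNA, and 174 without siRNA. The lipid arrays read 260.1, 205 and 279 with AML1-ETO siRNA, against 301, 266 and 279 with luciferase siRNA. Untransfected cells had 372 and 237, and this pair lay further apart than any arrays of 1 transfected group. RPE (221770_at) ran between 12.0 and 43.9 over the 14 arrays, and the 5 groups with replicates all overlapped, while the single array without siRNA (21.3) lay below the luciferase lipid and untransfected arrays.

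TKT, transketolase, moves a carbon pair between sugar phosphates, and TALDO1, transaldolase, moves a dihydroxyacetone unit. TKT probe set 208699_x_at had signals of 1691, 1909 and 1698 with AML1-ETO siRNA by nucleofection, against 838 and 969 with luciferase siRNA by nucleofection. The array nucleofected without siRNA had 1149. Lipid delivery gave 2049, 2312 and 1810.2 with AML1-ETO siRNA, against 1988, 1812 and 1921 with luciferase siRNA, and untransfected cells had 1819.7 and 1730.4. The 3 nucleofected arrays without AML1-ETO siRNA were the lowest of the 14, and of the AML1-ETO nucleofection arrays 1 lay within the range of the lipid arrays and the other 2 just below every lipid and untransfected array. Of the 5 groups with replicates, luciferase nucleofection had the lowest mean, 903 ± 92.6 (SD, n = 2). Those of AML1-ETO nucleofection (1766 ± 124, SD, n = 3), untransfected cells (1775 ± 63.1, SD, n = 2), luciferase lipid (1907 ± 88.4, SD, n = 3) and AML1-ETO lipid (2057 ± 251, SD, n = 3) followed, and no difference among these neighbours was called.

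The other TKT probe set, 208700_s_at, had 1699.6, 1400.3 and 1769.8 with AML1-ETO siRNA by nucleofection, against 1167 and 1153 with luciferase siRNA, and 1035 without siRNA. The lipid arrays read 1492, 1533 and 1864 with AML1-ETO siRNA, against 1711, 1658 and 1633 with luciferase siRNA, and untransfected cells had 2072 and 1451. Again the 3 nucleofected arrays without AML1-ETO siRNA were the lowest. TALDO1 (201463_s_at) had 973, 959 and 917 with AML1-ETO siRNA by nucleofection, against 796 and 882 with luciferase siRNA, and 783 without siRNA. Lipid delivery gave 1023, 981 and 1024 with AML1-ETO siRNA, against 853, 950.5 and 1024 with luciferase siRNA, and untransfected cells had 991 and 958. TALDO1 had the narrowest range of the members relative to its level, 783 to 1024, and its luciferase lipid arrays overlapped its nucleofected ones.

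**Figure D1:**
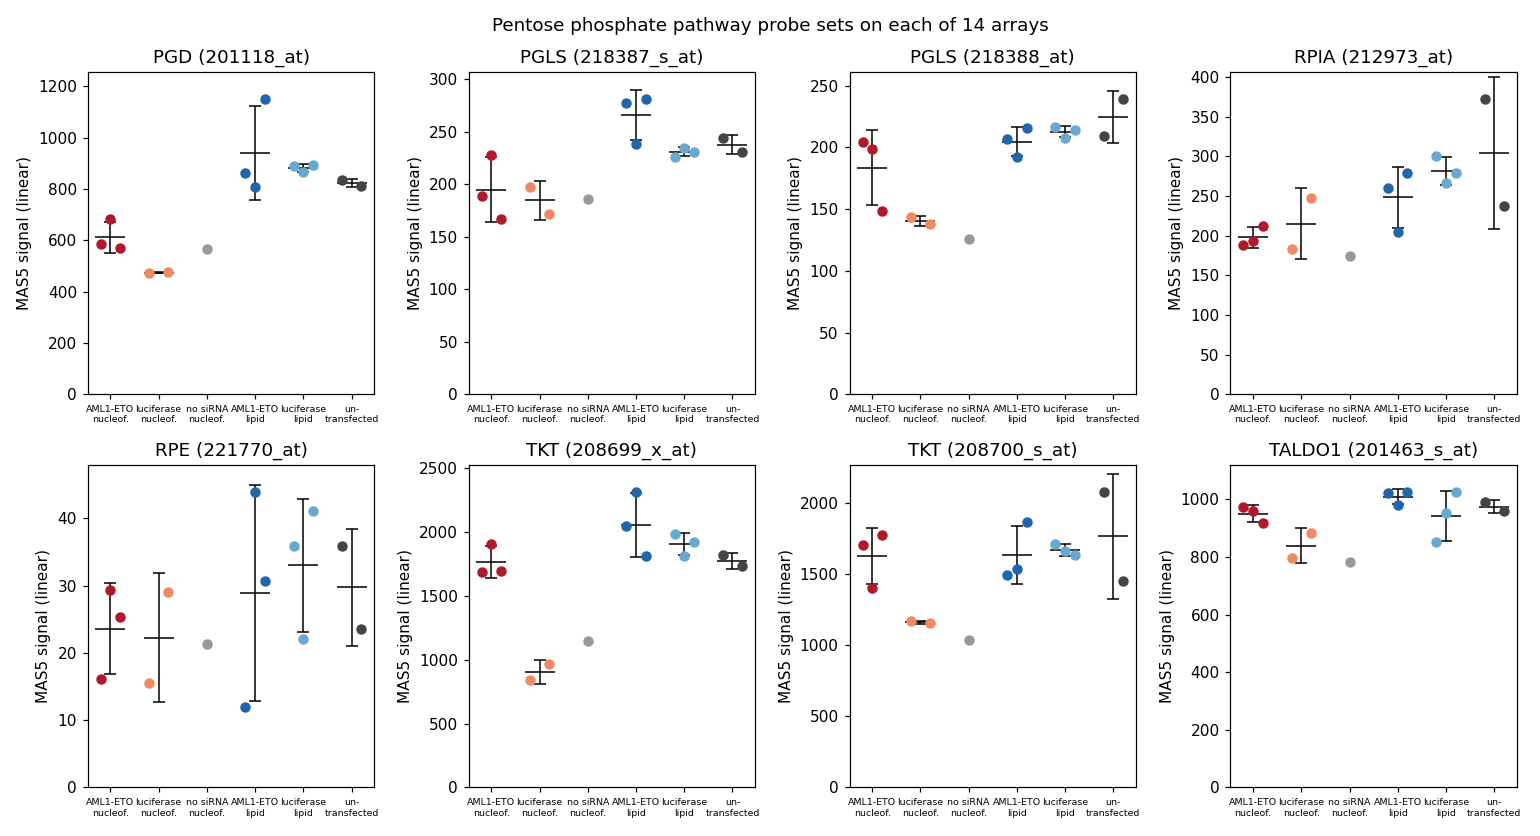
MAS5 signal (linear axis starting at 0) of the 8 probe sets on each of the 14 arrays, 1 panel per probe set, with points for arrays and bars for the group mean and SD. TKT 208699_x_at stands at 838 and 969 in luciferase nucleofection and at 1149 without siRNA, below its other 11 arrays.

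The first comparison asks whether lowering AML1-ETO changed these enzymes under nucleofection, where RUNX1T1 fell on 3 of its 4 probe sets. TKT probe set 208699_x_at was 0.97 higher in log2 units with AML1-ETO than with luciferase siRNA (SE 0.16, 95% interval 0.62 to 1.32, adjusted p = 0.00803 in limma), which is 1.96-fold. Against untransfected cells this probe set stood at −0.01 with AML1-ETO siRNA and at −0.98 with luciferase siRNA by nucleofection. It had the 62nd smallest p of the 11439 probe sets. It was the 1 of 8 members called, and 2.12% of all probe sets were called (1.31% higher). The other TKT probe set was 0.48 higher (SE 0.19, adjusted p = 0.207) and did not pass. PGLS 218388_at (0.37, SE 0.17, adjusted p = 0.277), PGD (0.37, SE 0.18, adjusted p = 0.298) and TALDO1 (0.18, SE 0.15, adjusted p = 0.567) were higher without passing. PGLS 218387_s_at, RPIA and RPE differed by 0.07, −0.11 and 0.03, with adjusted p of at least 0.839. In 5 of the 8 members every AML1-ETO array was above both luciferase arrays, and this held for 12.3% of all probe sets. The members' median difference was 0.27, beside −0.10 over all probe sets tested.

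The TKT call rested on few arrays. Over 26 alternative settings the difference stayed between 0.85 and 1.10, and in 3 of them the call was lost. Without luciferase nucleofection replicate 1 the difference was 0.86 (adjusted p = 0.0771), when the fit held only the groups compared the adjusted p was 0.0960, and with the GAPDH 3′ to 5′ ratio of each array as a covariate the difference was 0.99 (SE 0.28, adjusted p = 0.215). The probes named _x_at and _s_at can take signal from related transcripts.

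With lipid, 0 of the 8 members passed, beside 0.0699% of all probe sets (limma), and 0 of them had an unadjusted p below 0.05. TKT differed by 0.10 (95% interval −0.21 to 0.41) and −0.04 (−0.40 to 0.32) on its 2 probe sets and PGD by 0.07 (−0.27 to 0.41). The other members lay between −0.19 and 0.20. The siRNA difference by nucleofection minus that by lipid was 0.87 for TKT 208699_x_at (SE 0.22, 95% interval 0.40 to 1.33, adjusted p = 0.196) and 0.52 for TKT 208700_s_at (SE 0.25, adjusted p = 0.497). Thus 0 of 8 members passed the test of this difference (0.0699% of all probe sets). With limma's trended and robust variance the first TKT probe set did pass (adjusted p = 0.0207), and 0 of the other 7 members did under any setting.

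As the mean of both methods, TKT 208699_x_at was 0.54 higher with AML1-ETO siRNA (SE 0.11, adjusted p = 0.0306, 1.45-fold). It was the 1 member of 8 called, beside 1.36% of all probe sets (0.927% higher). The call did not hold in 12 of 25 alternatives, with differences of 0.48 to 0.62. Leaving out 1 array, done for all but the array without siRNA, ended it in 10 of 13 cases, the exceptions being AML1-ETO lipid replicate 3 and both untransfected arrays, with differences of 0.48 to 0.59 and adjusted p of 0.0540 to 0.118. With the replicate number as a block it was 0.55 (adjusted p = 0.0538). The other 7 members lay between −0.15 (RPIA) and 0.22 (PGD and TKT 208700_s_at), with adjusted p of at least 0.432.

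**Figure D2:**
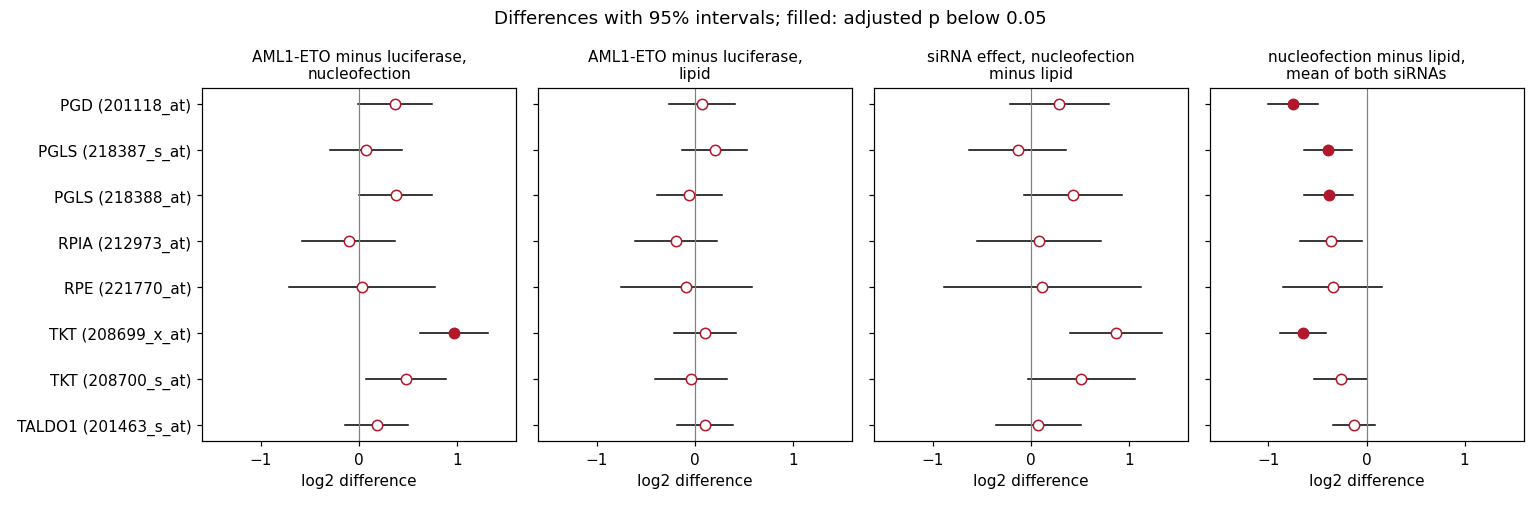
Log2 differences of the 8 probe sets with 95% intervals in 4 comparisons (x axis, log2 scale), filled where limma's adjusted p was below 0.05. TKT 208699_x_at is the filled point among the nucleofection siRNA differences, and PGD, both PGLS probe sets and TKT 208699_x_at are filled for nucleofection minus lipid.

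Nucleofection was then set against lipid as the mean of both siRNAs. Here 4 of 8 members fell, in a comparison in which 22.6% of all probe sets were called (18.6% lower, 3.98% higher). PGD fell by 0.75 in log2 units (SE 0.12, adjusted p = 0.00114 in limma), to 0.594 times its lipid level, and TKT 208699_x_at fell by 0.65 (SE 0.11, adjusted p = 0.00156). PGLS fell by 0.39 (SE 0.11, adjusted p = 0.0277) on 218387_s_at and by 0.38 (SE 0.11, adjusted p = 0.0301) on 218388_at. RPIA (−0.36, adjusted p = 0.0920), RPE (−0.35, adjusted p = 0.301), TKT 208700_s_at (−0.26, adjusted p = 0.147) and TALDO1 (−0.13, adjusted p = 0.380) were lower without passing. The members' median was −0.37, beside −0.15 over all probe sets. In 2 of 8 members, PGD and PGLS 218387_s_at, the nucleofected arrays lay below the lipid arrays within each siRNA, as did 14.2% of all probe sets.

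Scaling moved these values. After quantile normalization, which brings the median of all probe sets to −0.01, PGD was at −0.52 (adjusted p = 0.00459) and TKT 208699_x_at at −0.51, both still called, while the PGLS probe sets were at −0.14 and −0.15 and lost their calls. TALDO1 turned to 0.10 there. The PGLS calls also ended without single arrays: 218387_s_at without any 1 of AML1-ETO nucleofection replicates 1 and 3, luciferase nucleofection replicate 2, AML1-ETO lipid replicates 1 and 3 and luciferase lipid replicates 2 and 3 (−0.39 to −0.34, adjusted p of 0.0504 to 0.0990 in limma). For 218388_at they were AML1-ETO nucleofection replicate 3, both luciferase nucleofection arrays, AML1-ETO lipid replicates 1 and 3 and all luciferase lipid arrays (−0.40 to −0.31, adjusted p of 0.0519 to 0.0825 in limma).

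Some control signals of RNA quality differed between the methods, and others overlapped. The log2 ratio of the 3′ to the 5′ control probe set of GAPDH was −0.18 to −0.11 with AML1-ETO siRNA and 0.03 to 0.25 with luciferase siRNA by nucleofection, against −0.38 to −0.17 and −0.30 to −0.26 with lipid and −0.21 to −0.19 in untransfected cells. With AML1-ETO siRNA the GAPDH ranges of the methods overlapped. The same ratio for ACTB, beta-actin, was 0.29 to 0.46 with AML1-ETO siRNA and 0.38 to 0.84 with luciferase siRNA by nucleofection. It was 0.31 to 0.59 and 0.30 to 0.38 with lipid and 0.50 to 0.66 in untransfected cells, so the methods overlapped. The 18S rRNA control signal was 88.1 to 276 and 149 to 828 in those nucleofection groups and 973 without siRNA, against at most 32.0 with lipid and at most 51.6 in untransfected cells. With the GAPDH ratio as a covariate, 0 of the 8 members were called by limma between the methods, beside 5 of all 11439 probe sets. PGD was at −0.50 (SE 0.26, adjusted p = 0.486) and TKT 208699_x_at at −0.67 (SE 0.25, adjusted p = 0.323). Without the covariate their SEs were 0.12 and 0.11. The part of RNA quality in these differences was not tested. The summed signal of 8 epithelial and fibroblast marker probe sets, 3 of them under the floor on all arrays, was 248 to 319 with AML1-ETO siRNA and 277 to 279.9 with luciferase siRNA by nucleofection, against 357 to 436 and 366 to 425 with lipid. The part of that marker list in these results was not tested.

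The methods were also compared within each siRNA, a comparison added after the values had been seen. With AML1-ETO siRNA 1 of 8 members fell (10.6% of all probe sets called, 1000 of 11439 lower), PGD by 0.60 (SE 0.16, adjusted p = 0.0300), while TKT differed by −0.22 (95% interval −0.53 to 0.10) and −0.01 (−0.37 to 0.36) on its probe sets. With luciferase siRNA 3 of 8 fell (8.48% of all probe sets called, 766 of 11439 lower): TKT 208699_x_at by 1.08 (SE 0.16, adjusted p = 0.00313), PGD by 0.90 (SE 0.18, adjusted p = 0.00961) and PGLS 218388_at by 0.60 (SE 0.17, adjusted p = 0.0472). The PGD call with AML1-ETO siRNA was lost without AML1-ETO nucleofection replicate 1 (−0.57), AML1-ETO nucleofection replicate 3 (−0.56) or lipid replicate 3 of that siRNA (−0.45), and after quantile normalization (−0.36, adjusted p = 0.114 in limma). With luciferase siRNA PGD lost its call without either luciferase nucleofection array (−0.89 and −0.90). With the GAPDH ratio as a covariate all calls within an siRNA were lost, PGD being at −0.48 (adjusted p = 0.201 in limma) with AML1-ETO siRNA and −0.52 (adjusted p = 0.734) with luciferase siRNA, and TKT 208699_x_at at −1.11 (adjusted p = 0.408) with luciferase siRNA. PGLS 218388_at lost its call with luciferase siRNA in 17 of 24 alternatives. The difference between these method effects is, by construction, the difference between the siRNA effects given above, which was not called for any member. The 2 luciferase nucleofection arrays enter this comparison, the siRNA comparison by nucleofection and the one with untransfected cells, so these results are not independent of each other.

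Each transfected group was also set against untransfected cells, a comparison that shares its 2 untransfected arrays throughout. With luciferase siRNA by nucleofection 2 of 8 members fell (4.87% of all probe sets called, 3.32% lower), TKT 208699_x_at by 0.98 (SE 0.18, adjusted p = 0.0110) and PGD by 0.80 (SE 0.19, adjusted p = 0.0337). PGLS 218388_at (−0.67, adjusted p = 0.0573) and TKT 208700_s_at (−0.58, adjusted p = 0.118) were lower without passing. In 6 of the 8 both luciferase arrays lay below both untransfected arrays, and so did 30.6% of all probe sets. The PGD call was lost in 10 of 25 alternatives, among them leaving out luciferase nucleofection replicate 1 (−0.79, adjusted p = 0.117), luciferase nucleofection replicate 2 (−0.80, adjusted p = 0.113), untransfected replicate 1 (−0.78, adjusted p = 0.170), untransfected replicate 3 (−0.81, adjusted p = 0.120) or luciferase lipid replicate 2 (−0.80, adjusted p = 0.0516). The TKT call was lost without untransfected replicate 1 (−0.94, adjusted p = 0.0906), untransfected replicate 3 (−1.01, adjusted p = 0.0570) or luciferase nucleofection replicate 1 (−0.87, adjusted p = 0.0618).

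With AML1-ETO siRNA by nucleofection 0 of 8 members passed against untransfected cells, beside 6.14% of all probe sets, and 2 of them, PGD and RPIA, had an unadjusted p below 0.05. TKT stood at −0.01 (95% interval −0.36 to 0.34) and −0.10 (−0.51 to 0.30), PGD at −0.43 (SE 0.18, adjusted p = 0.161) and RPIA at −0.59 (SE 0.22, adjusted p = 0.126). With lipid 0 of 8 passed for AML1-ETO siRNA (0.0699% of all probe sets) and 0 of 8 for luciferase siRNA (0.00874%), and 0 had an unadjusted p below 0.05 in either. Their differences lay between −0.27 and 0.21 with AML1-ETO siRNA and between −0.08 and 0.13 with luciferase siRNA.

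**Figure D3:**
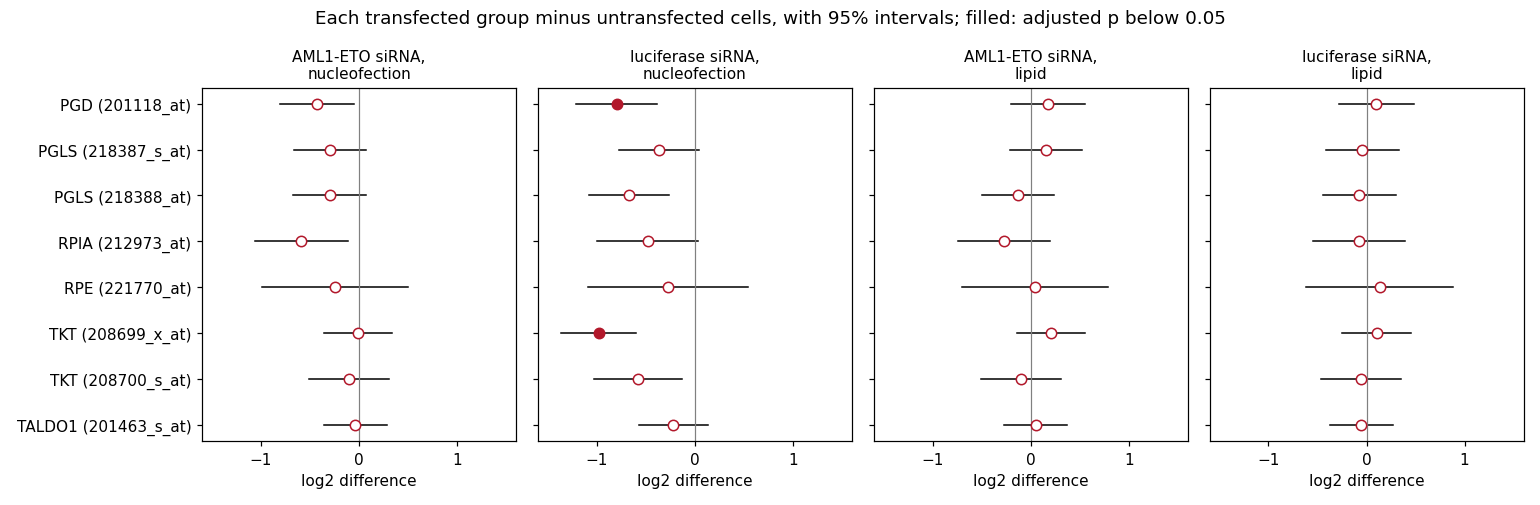
Log2 difference of each transfected group minus untransfected cells for the 8 probe sets, with 95% intervals (x axis, log2 scale), filled where limma's adjusted p was below 0.05. PGD and TKT 208699_x_at are the 2 filled points, both with luciferase siRNA by nucleofection, at −0.80 and −0.98.

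The members varied together to different degrees over the 14 arrays, which share their groups, so these correlations describe the arrays and carry no test. The log2 values of PGD correlated with those of PGLS 218387_s_at at r = 0.88, and at 0.625 once each group's mean was removed. The 2 PGLS probe sets had 0.755, and 0.635 within groups. The 2 TKT probe sets had 0.722, and −0.379 within groups, so their shared pattern lay between the groups and not between replicates. TKT 208699_x_at and TALDO1 had 0.751, and 0.004 within groups.

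For the brightest probe set of each gene, the 3 probe sets of other genes with the highest r over the 14 arrays were named. For TKT they were AZU1, the granule protein azurocidin, FUT4, a fucosyltransferase, and ALAS1, the first enzyme of haem synthesis, with r of 0.95, 0.95 and 0.94. For PGD they were TAF10, COX7A2L and ZNF443, each with 0.96, and for PGLS USP8 (0.96), PKP4 (0.96) and NARF (0.93). For RPIA they were NACA (0.96), ZNF330 (0.95) and UNG (0.93), for TALDO1 BLOC1S1 (0.91), PNRC2 (0.90) and BTG1 (0.90), and for RPE KHNYN (0.84), CPNE3 (0.82) and OLFML1 (0.82). Such values are the highest of many and rest on the same group pattern.

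Genes around the pathway were followed in 6 lists. Between the siRNAs, as the mean of both methods, 0 probe sets were called by limma in any of them. This was 0 of 9 for neighbours of the pathway and 0 of 18 for glycolytic enzymes that share its metabolites. It was 0 of 16 for other NADPH-forming enzymes, a list that also held NADK, which makes NADP. For redox enzymes that use or depend on NADPH it was 0 of 15. It was 0 of 21 for purine and pyrimidine synthesis, which uses the pathway's ribose 5-phosphate, and 0 of 12 for targets of NRF2, a regulator of antioxidant genes. By nucleofection alone 2 of the 15 redox probe sets were higher with AML1-ETO siRNA, beside 1.31% of all probe sets, and 0 in the other lists. Both read CAT, the catalase that breaks down hydrogen peroxide (0.82, adjusted p = 0.0191, and 0.78, adjusted p = 0.0399 in limma), which is named here after its values were seen. All 21 nucleotide synthesis probe sets had a difference below 0 (median −0.17), beside 63.7% of all probe sets (median −0.07). After quantile normalization 18 of the 21 were below 0 (median −0.13), and after centring each array on its median 17 were (median −0.08).

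Between nucleofection and lipid, calls in the lists went both ways, beside 18.6% of all probe sets called lower and 3.98% called higher. In the list of other NADPH-forming enzymes 4 of 16 probe sets fell and 0 rose. Of the NADPH-forming enzymes themselves, NNT, the mitochondrial transhydrogenase, fell by 0.74 (adjusted p = 0.0234) and IDH2, the mitochondrial isocitrate dehydrogenase, by 0.57 (adjusted p = 0.0112). NADK, a kinase in this list that makes NADP and not NADPH, fell by 0.72 (adjusted p = 0.0143) and 0.69 (adjusted p = 0.0203). Of glycolytic enzymes 3 of 18 rose, all 3 of GAPDH (0.66, 0.59 and 0.45, adjusted p of 0.00554, 0.00787 and 0.0302), and 1 fell, the aldolase ALDOC by 0.70 (adjusted p = 0.00407). Of redox enzymes 2 of 15 rose, thioredoxin TXN by 0.78 (adjusted p = 0.0271) and the quinone reductase NQO1 by 0.68 (adjusted p = 0.00852), and 2 fell, glutaredoxin GLRX by 0.74 (adjusted p = 0.00107) and glutathione peroxidase GPX1 by 0.44 (adjusted p = 0.0137). 

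Of nucleotide synthesis 3 of 21 fell and 0 rose, beside the same 18.6% lower and 3.98% higher over all probe sets: PPAT, the first enzyme of purine synthesis, by 0.47 (adjusted p = 0.0272), IMPDH1, on the way to guanine nucleotides, by 0.44 (adjusted p = 0.0433), and ATIC, which closes the purine ring, by 0.35 (adjusted p = 0.0251). Of NRF2 targets 3 of 12 rose and 1 fell. They were NQO1, also counted above, the ferritin light chain FTL (0.42, adjusted p = 0.0238) and 2 probe sets of the cystine transporter SLC7A11, called in opposite directions. The SLC7A11 probe sets were near or under the floor, 1 of them under it on all 5 nucleofected siRNA arrays and the other on 3 of the 6 lipid arrays, so their sizes are not given. Of the pathway's neighbours 0 of 9 were called. The list medians ran from −0.19 for other NADPH-forming enzymes to 0.16 for NRF2 targets, beside −0.37 for the 8 members, and under quantile normalization from −0.07 to 0.09, beside −0.14 for the members. Nucleotide synthesis had 16 of 21 below 0 (median −0.11), and 6 of 21 (median 0.08) under quantile normalization. There the medians of redox enzymes (−0.13 to 0.05), glycolytic enzymes (−0.01 to 0.09) and neighbours (−0.09 to 0.01) also changed sign. Those of other NADPH-forming enzymes (−0.07) and NRF2 targets (0.07) did not.

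**Figure D4:**
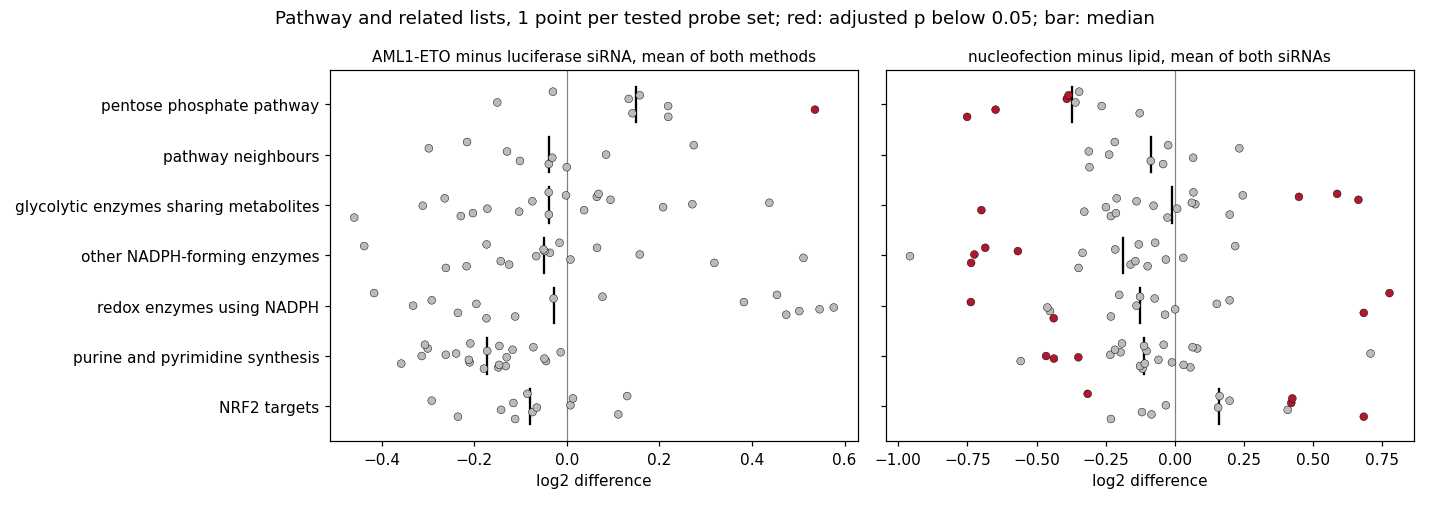
Log2 differences (x axis) of every tested probe set of the 8 members and the 6 lists, with a bar at each median and red points where limma's adjusted p was below 0.05, for AML1-ETO minus luciferase siRNA (left) and nucleofection minus lipid (right). TKT 208699_x_at at 0.54 is the red point on the left, and the members' median on the right, −0.37, lies below the medians of all 6 lists.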

How the data were processed

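RNA of 14 Kasumi-1 samples was measured on 1-colour oligonucleotide arrays. The authors deposited 1 linear intensity per probe set, a MAS5 signal per the submitters' processing notes. MAS5's version, its settings and a genome build are not given in the sources used here. The 14 samples held no array numbered 3 of luciferase nucleofection and none numbered 2 of untransfected cells.

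Signals under 20 were set to 20 before log2. Of 22283 probe sets, 19065 had 1 gene symbol in the platform annotation, 1043 had several, and 2175 had none or were controls. The upper 60% by mean signal were tested, 11439 probe sets of 7985 genes with a mean of at least 22.9. In R 4.3.3, limma 3.58.1 (lmFit, eBayes) was fitted to 6 group means over all 14 arrays, with 8 residual and 5.04 prior degrees of freedom. P-values were adjusted by Benjamini-Hochberg over all 11439 and called below 0.05. The number of arrays limits the precision. No 2 arrays held identical values.

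The members and lists were chosen with earlier results of these data known. All member probe sets are named. From each list up to 4 called probe sets, taken by smallest p, are named for the mean siRNA effect and for nucleofection against lipid, and for each gene the 3 probe sets most correlated with its brightest one. There were 26 alternatives, which changed scaling, floor, filter, features, variance model, arrays fitted, controls, replicate block, a covariate and single arrays. The within-siRNA method comparisons were added after the values were seen. Promoter stretches came from RefSeq's table (GRCh38.p14), which held 6 of 6 members. The steps were tested on simulated data. Python 3.11.15 (matplotlib 3.10.9, numpy 2.4.6, pandas 2.3.3) drew the figures.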

Additional observations from a re-analysis of the deposited data

How the results depend on the processing

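Each member's difference was recomputed under 24 to 26 alternatives per comparison, 2175 values in all. Of these, 1997 kept their direction and their side of the threshold, 80 lost a call, 14 gained one, 84 changed sign while uncalled in both settings, and 0 changed sign while called. By nucleofection, 1 member was called between the siRNAs, and 0 were when only the groups compared were fitted or with the GAPDH 3′ to 5′ ratio as a covariate. As the mean of both methods 1 was called, and 0 with that covariate. Between nucleofection and lipid 4 were called, against 2 after quantile normalization and 0 with the covariate. RPIA gained a call there with trended and robust variances (−0.36, adjusted p = 0.0444 in limma). For luciferase nucleofection against untransfected cells 2 were called. There, 1 was called after quantile normalization or with a floor of 64, 4 after median centring or with trended and robust variances, and 0 with only the groups compared or with the covariate. For the difference between the methods in the siRNA effect, 0 were called, and 1 with trended and robust variances. Without 1 array, limma called 0 to 1 members by nucleofection and 0 to 1 as the mean of both methods, 2 to 4 between the methods, 0 to 3 for luciferase nucleofection against untransfected cells, and 0 to 0 in the other planned comparisons. The causes of these moves were not tested.

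The replicate numbers were checked for pairing. Deviations of same-numbered arrays correlated at −0.286 to 0.054 over 22 pairs, beside −0.258 to 0.286 over 45 pairs with different numbers. No pairing by number was seen. Deviations from the mean of a few arrays depend on each other, so this check cannot exclude that same-numbered arrays were paired. With the number as a replicate block 0 members were called as the mean of both methods (TKT 208699_x_at 0.55, adjusted p = 0.0538 in limma). For luciferase nucleofection against untransfected cells 1 was called, TKT 208699_x_at, while PGD lost its call (−0.76, adjusted p = 0.112). PGLS 218388_at lost its call between the methods (−0.39, adjusted p = 0.0544). Within 1 siRNA, PGD lost its call with AML1-ETO siRNA (−0.60, adjusted p = 0.0536) and PGLS 218388_at with luciferase siRNA (−0.61, adjusted p = 0.0913). The block changed no other member's call.

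Over all probe sets, calls between the siRNAs by nucleofection numbered 243, and 473 after quantile normalization, 392 with trended and robust variances, 378 without a filter, 142 with a floor of 64, 159 with the replicate block, 36 with only the groups compared and 20 with the covariate. Between the methods 2580 were called (455 higher and 2125 lower), against 1636 (711 higher and 925 lower) after quantile normalization, 1320 with a floor of 64 and 5 with the covariate. As the mean of both methods 156 were called (106 higher and 50 lower), against 222 (178 and 44) after quantile normalization, 166 (146 and 20) after median centring, 91 with a floor of 64, 97 with the replicate block and 31 with the covariate. For luciferase nucleofection against untransfected cells 557 were called (177 higher and 380 lower), against 1233 (125 and 1108) after median centring, 864 with trended and robust variances, 232 with a floor of 64, 183 with the replicate block and 0 with the covariate or with only the groups compared.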
